A study of Arabidopsis thaliana with 13 samples.

Results

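The amino acid permeases AAP1 to AAP8 and the lysine-histidine transporter LHT1 are 9 of the 33560 genes measured in sorted root cells of Arabidopsis thaliana. The cells came from plants with a functional WOX5 gene, which encodes a homeodomain protein needed in the quiescent centre (QC) of the root meristem, and from plants that lack it. The members are AAP1 (AT1G58360), AAP2 (AT5G09220), AAP3 (AT1G77380), AAP4 (AT5G63850), AAP5 (AT1G44100), AAP6 (AT5G49630), AAP7 (AT5G23810), AAP8 (AT1G10010) and LHT1 (AT5G40780). The family was chosen by name, but after AAP1 had been seen among the genes that were most raised in wox5-1 QC-marker cells. The family was thus selected on that comparison, whose values are given as a description with no test, for every member. AAP1 is also described without a test wherever the same QC-marker libraries enter again.

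All 13 libraries came from roots of the Col-0 ecotype, protoplasted 5 days after germination and sorted by fluorescence. The wild-type QC-marker cells (n = 3) and the wox5-1 QC-marker cells (n = 4) carried the WOX5::GFP reporter, so the promoter that marked them is that of the mutated gene. CEI-marker cells, sorted on CYCD6::GUS-GFP, a reporter of the cortex/endodermis initials and their daughters, came from the wild type (n = 3) and from wox5-1 (n = 3). Per the labels, the libraries of a group are biological replicates; separate cultures are not stated, so the p-values measure the spread between these libraries.

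The AAP permeases and LHT1 are plasma membrane carriers that import amino acids together with protons. In Arabidopsis roots, AAP1, AAP5 and LHT1 are known for taking up amino acids from outside the root: AAP1 mainly uncharged ones and glutamate, AAP5 mainly the basic ones, and LHT1 a broad range of neutral and acidic ones. AAP2, AAP3, AAP4, AAP6 and AAP8 are known mostly from vascular tissue, where they move amino acids into phloem or retrieve them from xylem, and AAP7 has no well-established substrate.

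Levels are FPKM, fragments scaled by transcript length and by the mapped fragments of the library, which are per length and can be compared between genes. In the RefSeq annotation the 8 AAP proteins are 466 to 493 residues long and LHT1 446. AAP2 and AAP4 are the most alike pair in coding sequence (82.44% identical), followed by AAP1 and AAP8 (76.52%), while LHT1 is 55.83% to 58.62% identical to the AAP genes. No pair shares more than 26 bases in a row. AAP3 overlaps the gene AT1G77370 by 15 bases, and the microRNA gene MIR5024 lies within AAP5 over 180 bases. No source used here says if the counting took strand into account, so fragments from these overlaps cannot be told apart.

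Depth, estimated from the table itself, was 5.93 to 7.55 M fragments (M being the prefix mega) in wild-type QC-marker cells, 23.9 to 37.0 M in wox5-1 QC-marker cells and 17.8 to 31.9 M in CEI-marker cells. In QC-marker libraries WOX5 itself was at 163 to 262 FPKM in the wild type and at 0 to 0.114 in wox5-1, so the mutant libraries match their labels. The 5 QC and niche markers (WOX5, AGL42, PLT1, PLT2 and WIP5) summed to 569 to 602 FPKM in wild-type and 210 to 332 in wox5-1 QC-marker cells. This sum includes WOX5, the mutated gene, so part of its gap is the mutation itself. In these cells the genotypes overlapped for PLT1 (wild type 96.7 to 229 FPKM, wox5-1 111 to 197) and PLT2 (51.9 to 121, 49.3 to 85.7). They did not overlap for AGL42 (16.3 to 32.9, 7.06 to 11.4) and WIP5 (57.2 to 98.6, 33.7 to 40.9), both lower in wox5-1. The 5 young ground tissue markers summed to 41.8 to 282 FPKM in wild-type and 54.0 to 96.9 in wox5-1 CEI-marker cells. The libraries that stand apart are the following. Library 2 of the wild-type QC-marker cells had 19783 genes at 0, where the other 12 libraries had 5385 to 12971. Wild-type CEI-marker library 4 had a sum of 2371 FPKM over 5 root cap markers, against 103 and 10.4 in libraries 1 and 3 of its group. In wox5-1 CEI-marker library 1 the 5 green tissue markers summed to 10843 FPKM, against 14.1 and 38.1 in the other 2. Counts of tested members are also given without these 3 libraries where they then differ, a choice made after seeing the data.

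LHT1 and AAP1 together held most of the summed FPKM of the 9 genes in every library. By median AAP5 had rank 3 in 3 of the 4 groups; in wild-type QC-marker cells it had rank 5, within the spread of the members around it. LHT1 was the highest member in wild-type QC-marker cells, with a median of 108 FPKM, and its range did not overlap that of any other member there. In wox5-1 QC-marker cells AAP1 (median 65.2 FPKM) and LHT1 (62.7) overlapped at the top, and AAP5 (9.03) lay below both and above the other 6. The order LHT1, AAP1, AAP5 by median held in both CEI-marker groups, at 41.5, 18.9 and 8.16 FPKM across the wild type and 58.5, 33.8 and 9.57 in wox5-1. LHT1 and AAP1 overlapped in both, and AAP1 and AAP5 overlapped in wox5-1. Every other member had a median of at most 2.22 FPKM in every group, and their order among neighbours was mostly within the spread. The 9 genes summed to 55.9 to 220 FPKM per library.

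**Figure D1:**
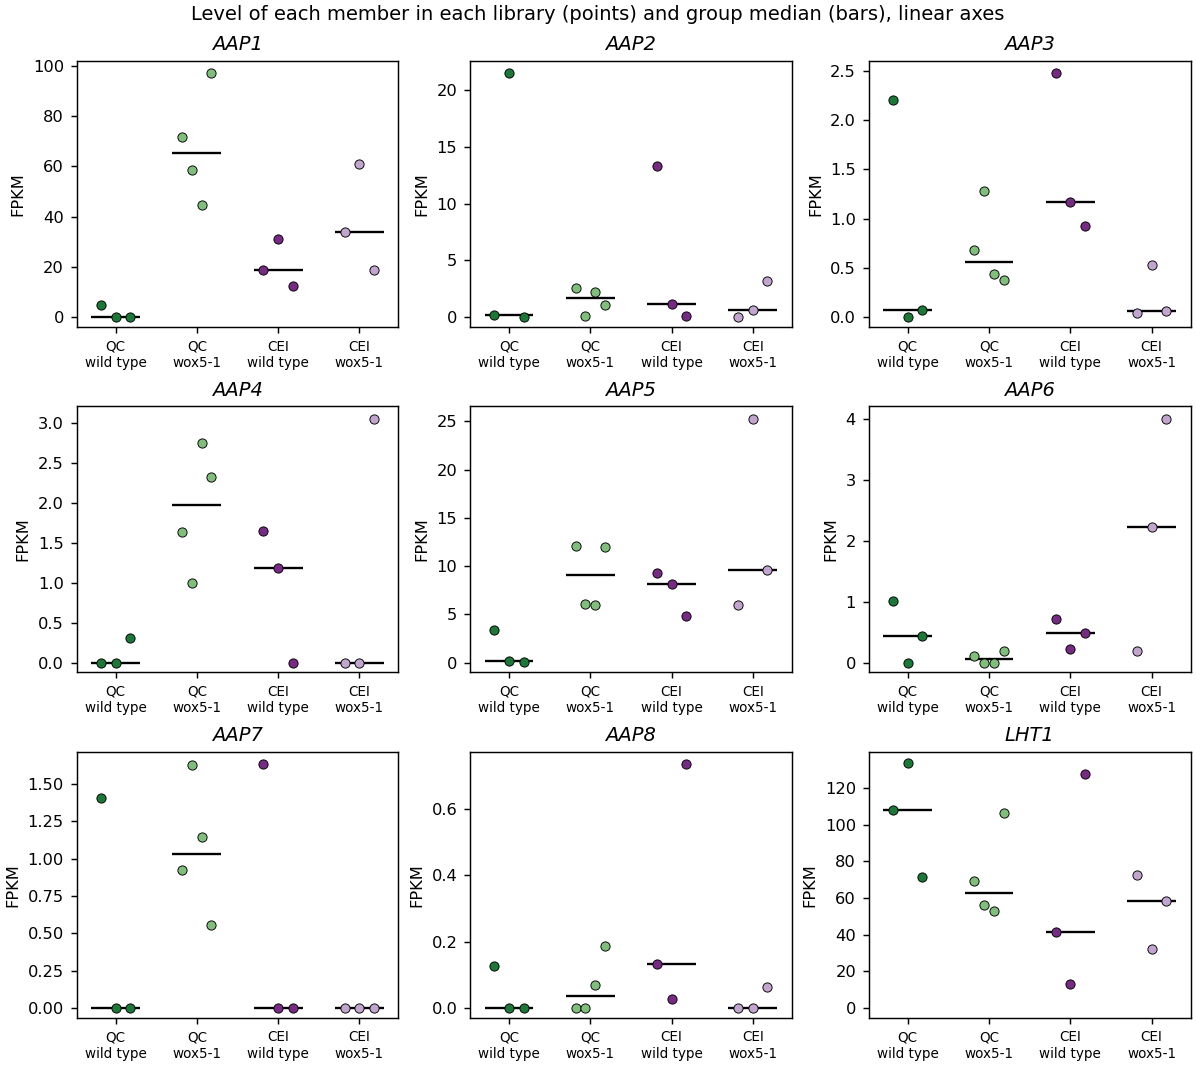
FPKM (linear axis, a separate scale for each gene) of the 9 members in 3 or 4 libraries of each group; each point is a library and each bar the group median. AAP1 lies between 0 and 4.85 FPKM in QC-marker libraries of the wild type and between 44.4 and 96.9 in the wox5-1 ones, while the LHT1 groups overlap.

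AAP1 was measured at 4.85, 0 and 0.174 FPKM in QC-marker libraries 1, 2 and 3 of the wild type and at 71.8, 58.7, 44.4 and 96.9 in the 4 wox5-1 libraries. Every wox5-1 library was far above every wild-type one. The means were 1.68 ± 2.75 FPKM (SD, n = 3) and 68.0 ± 22.3 (SD, n = 4), and the fitted difference was 5.12 (SE 0.61) on the log2(FPKM + 1) scale, where the median of all 21574 genes tested was 0.32. At the estimated depth these levels correspond to about 54.7, 0 and 2.26 fragments in the wild type and 1800 to 5950 in wox5-1. One fragment of AAP1 was worth 0.0771 to 0.107 FPKM in the wild-type libraries, so values near 0.1 there rest on single fragments. In bulk samples, fewer cells of a type and less RNA per cell cannot be told apart.

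LHT1 was measured in the same libraries at 108, 134 and 71.3 FPKM across the wild type and at 69.4, 55.9, 53.0 and 106 in wox5-1. Its groups overlapped, with a difference of -0.56 (SE 0.58). The level of AAP1 relative to LHT1 was 0.0449, 0 and 0.00244 in the wild-type libraries and 1.03, 1.05, 0.838 and 0.912 in the wox5-1 libraries. LHT1 made up 86.1% to 98.5% of the summed FPKM of the 9 genes in the wild type, and 43.6% to 48.3% in wox5-1, where AAP1 made up 40.4% to 47.1%.

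**Figure D2:**
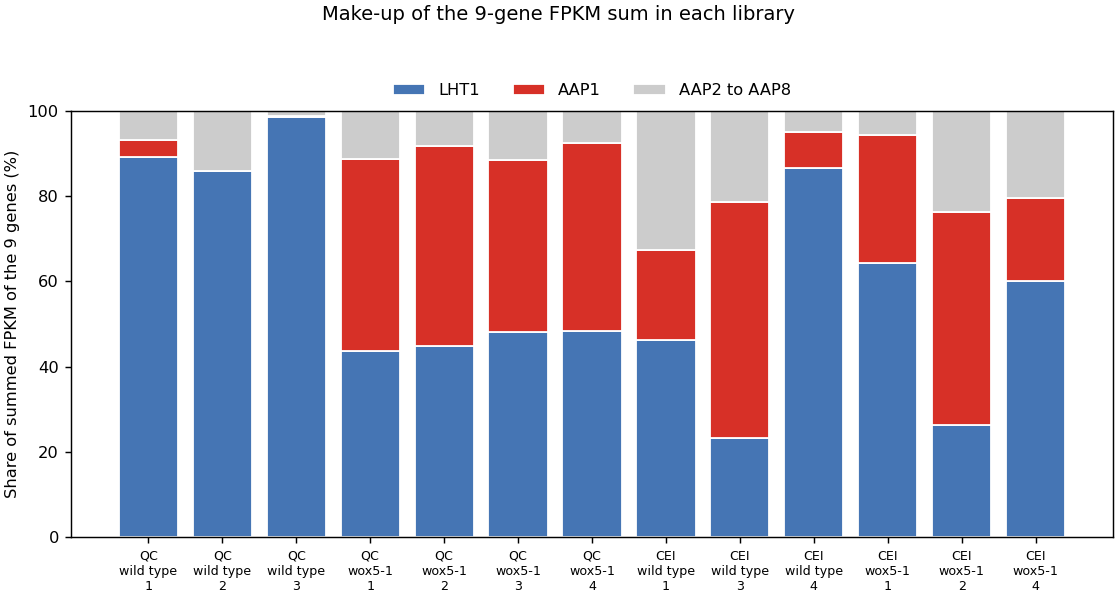
Share of the summed FPKM of the 9 genes (percent, from 0) held by LHT1, AAP1 and the other 7 members, 1 bar per library. LHT1 holds 86.1% to 98.5% in wild-type QC-marker cells; AAP1 and LHT1 hold similar shares in all 4 wox5-1 QC-marker libraries, and the shares vary from library to library in CEI-marker cells.

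AAP5, the importer of basic amino acids, was measured at 3.34, 0.171 and 0.0653 FPKM in QC-marker cells of the wild type and at 12.0, 6.11, 5.98 and 12.0 in wox5-1. The ranges did not overlap and the difference was 2.45 (SE 0.63), or 1.19 (SE 0.62) after quantile normalization. AAP4, known from veins, was listed at 0, 0 and 0.310 FPKM across the wild type and stood at 1.64, 0.999, 2.75 and 2.32 in wox5-1, again without overlap (1.38, SE 0.52; 0.67, SE 0.48, after quantile normalization). Of the 8 members that could be fitted, AAP1 and AAP5 (2) were called at an adjusted p under 0.05 in this comparison, where 3.43% of all genes were called. Since the family was selected on this comparison, nothing is read from that count, nor from the ranges that did not overlap. The share of all genes whose groups did not overlap was not counted in any comparison.

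The remaining members overlapped between genotypes in QC-marker cells. AAP2, which moves amino acids from xylem to phloem, stood at 0.190, 21.5 and 0 FPKM in wild-type libraries, so that its wild-type mean rests on library 2, and at 0.0787 to 2.55 in wox5-1. Without library 2 its difference turned from -0.40 (SE 1.06) to 1.05 (SE 0.90). AAP3, of root phloem, was measured at 2.20, 0 and 0.0761 FPKM across the wild type and at 0.374 to 1.28 in wox5-1 (0.14, SE 0.44; -0.55 after quantile normalization). AAP6, a high-affinity carrier, lay between 0 and 1.01 FPKM across the wild type and between 0 and 0.189 in wox5-1 (-0.41, SE 0.44). AAP7 was listed at 1.40, 0 and 0 FPKM across the wild type and was above 0 in all 4 wox5-1 libraries, at 0.557 to 1.63 (0.60, SE 0.42; 0.00062, SE 0.39, after quantile normalization). AAP8 never reached 1 FPKM in any of the 13 libraries and did not pass the filter of 1 FPKM in 3 libraries, so that 8 of 9 members were tested.

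Other groups of genes differed between the same libraries, and their part in the AAP1 values was not tested. The 7 epidermis and root hair markers (none at 0 in any library) summed to 159, 970 and 485 FPKM in the wild-type and 997 to 1684 in the wox5-1 QC-marker libraries. Of these 7, 6 had a positive difference, 4 had an unadjusted p under 0.05 and 0 were called by limma. Over all 21574 genes tested, 3.43% were called and 4240 had an unadjusted p under 0.05. WER had the negative difference, at 34.2 to 56.7 FPKM across the wild type and 12.2 to 18.7 in wox5-1. Single genes carried much of the sums: PRP3 was at 626 FPKM in wild-type library 2 and COBL9 at 316 in library 3. Beside the sums of 159, 970 and 485 FPKM, AAP1 was at 4.85, 0 and 0.174 FPKM, and in wild-type CEI-marker libraries 1, 3 and 4, with sums of 134, 2001 and 316 FPKM, it was at 18.9, 31.0 and 12.5. The 7 wounding and jasmonate genes (JAZ7, JAZ8, JAZ10, AOC1, VSP2, LOX2 and WRKY40) summed to 60.3 to 258 FPKM across the wild type and 795 to 859 in wox5-1. Of the 6 tested, 5 were called higher, beside 3.43% of all genes called in either direction. WRKY40 (393 to 487 FPKM) and JAZ10 (212 to 305) held most of the wox5-1 sum. LOX2 was not called, at 0 to 3.45 FPKM across the wild type and 0.0484 to 0.573 in wox5-1. VSP2 stayed under 1 FPKM in these libraries. JAZ7 was listed at 0 in wild-type libraries 2 and 3. In both groups of CEI-marker cells the 7 wounding and jasmonate genes summed to 85.0 to 337 FPKM, while AAP1 stood at 12.5 to 60.8. The sums of the root cap, phloem and differentiating endodermis lists overlapped between the genotypes. The xylem sums did not (0 to 19.5 FPKM across the wild type and 19.7 to 70.6 in wox5-1). By limma 0 of the 15 tested genes of these 4 lists were called, 2 root cap and 2 xylem genes having an unadjusted p under 0.05. The overlap of the root cap sums hides mixed directions, with 2 positive (SMB and FEZ) and 3 negative differences. BRN1 was lower in wox5-1 without overlap, at 42.7 to 302 FPKM across the wild type and 9.62 to 33.7 in wox5-1. So was BRN2, at 30.7 to 301 and 6.42 to 21.2 FPKM. The genotypes overlapped for SMB, FEZ and CEL5. The 5 young ground tissue markers summed to 77.8 to 108 FPKM across the wild type and 65.7 to 75.8 in wox5-1, without overlap. By limma 0 of the 5 were called, with 2 at an unadjusted p under 0.05. Their directions were mixed, with 2 positive and 3 negative differences. CYCD6;1 was at 0.658, 0 and 2.07 FPKM across the wild type and higher, at 4.56 to 5.75, in wox5-1. NUC was at 14.5 to 23.6 FPKM across the wild type and lower, at 3.38 to 12.7, in wox5-1. All 6 phloem and all 3 xylem markers were listed at 0 in wild-type library 2.

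The second comparison asked whether loss of WOX5 goes with a change of the family in CEI-marker cells, and did not enter the choice of the members. AAP1 stood at 18.9, 31.0 and 12.5 FPKM across the wild type and at 33.8, 60.8 and 18.7 in wox5-1. The groups overlapped, and the difference was 0.77 (SE 0.65; 95% interval -0.62 to 2.16; adjusted p = 0.76, limma). LHT1 varied widely within the wild type, at 41.5, 13 and 127 FPKM, and stood at 72.6, 32.0 and 58.5 in wox5-1 (0.31, SE 0.62; adjusted p = 0.923). Its sign turned to -0.49 without wild-type library 3. Wild-type library 4, the highest in LHT1, was the library with the root cap marker sum of 2371 FPKM and had WOX5 at 0; the part of these transcripts in the LHT1 level was not tested. AAP5 was measured at 9.24, 8.16 and 4.86 FPKM across the wild type and at 5.97, 25.3 and 9.57 in wox5-1, with overlap (0.61, SE 0.67; adjusted p = 0.826).

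Among the vascular members, AAP3 had groups that did not overlap in CEI-marker cells. It was at 2.48, 1.17 and 0.927 FPKM across the wild type and 0.0418, 0.534 and 0.0647 in wox5-1. Its difference of -1.03 (SE 0.47; 95% interval -2.03 to -0.03) did not pass the test over all genes (adjusted p = 0.619, limma). AAP2 spread from 0.0640 to 13.3 FPKM over the wild-type libraries and from 0.0227 to 3.16 over the wox5-1 libraries, with overlap. AAP4 was listed at 0 in 1 wild-type and 2 wox5-1 libraries and reached 3.05 FPKM in wox5-1 library 4. AAP6 lay at 0.714, 0.222 and 0.480 FPKM across the wild type and 0.193, 2.22 and 4.0 in wox5-1 (0.88, SE 0.47; adjusted p = 0.639). AAP7 was listed at 0 in 5 of the 6 libraries, the exception being 1.63 FPKM in wild-type library 1. AAP8 lay between 0.0276 and 0.735 FPKM across the wild type and between 0 and 0.0622 in wox5-1.

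By limma 0 of the 8 members tested were called in CEI-marker cells, and 1 (AAP3) had an unadjusted p under 0.05. Over all genes 0.0278% were called and 1734 had an unadjusted p under 0.05. AAP2, AAP4 and AAP7 had differences of -0.74, -0.17 and -0.47 (adjusted p from 0.795 to 0.954), and the signs of AAP2 and AAP4 turned when single libraries were left out. The median difference of the 8 members was 0.07, beside 0.08 over all genes. Without the 3 libraries named above, 1 member, AAP6, was called (1.47, SE 0.39; adjusted p = 0.0238, limma). Its adjusted p ranged from 0.0238 to 1 over the 16 of 22 alternatives in which it could be tested. The fit without the 3 libraries kept 2 CEI-marker libraries per genotype and called 4574 genes over the whole table, where the main fit called 6. AAP6 passed the filter only through wox5-1 CEI-marker libraries 2 and 4 and wild-type QC-marker library 1, so nothing is read from that call.

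The difference between the 2 genotype effects, QC-marker minus CEI-marker cells, contains the comparison that chose the family and is therefore a description. It was 4.35 (SE 0.89) for AAP1 and 1.84 for AAP5. AAP4 had 1.55, AAP3 1.17, AAP7 1.06 and AAP2 0.34, while LHT1 had -0.86 and AAP6 -1.29.

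**Figure D3:**
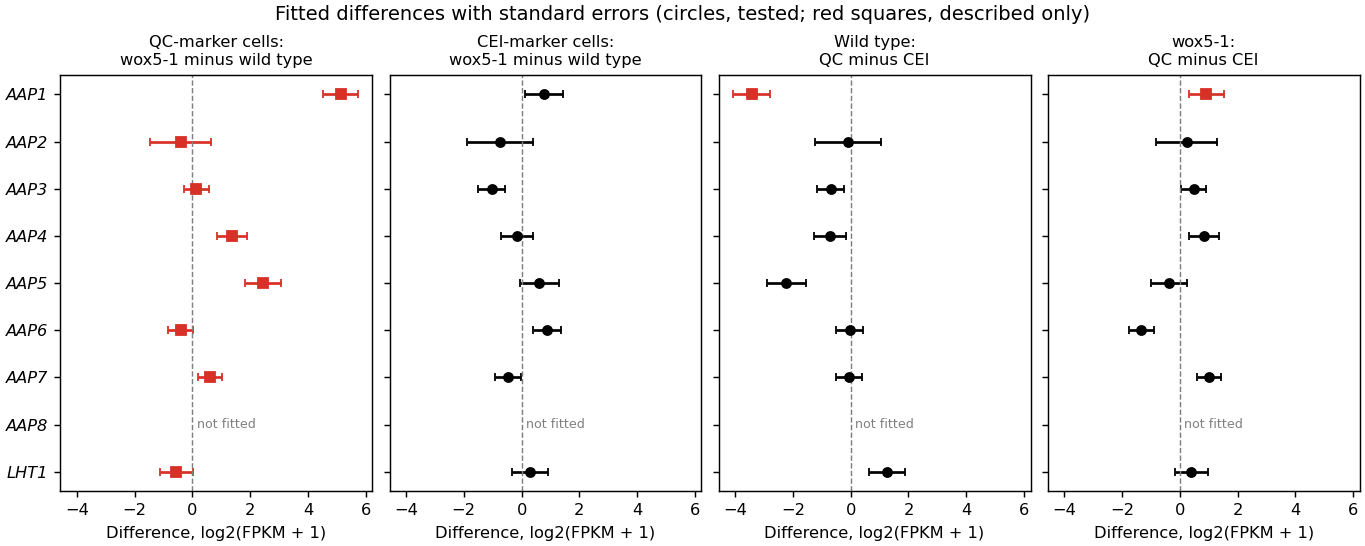
Fitted difference (points) and SE (bars) on the log2(FPKM + 1) scale for 8 members in 4 comparisons; circles were tested, red squares are described only, and AAP8 was not fitted. AAP1 lies at 5.12 in the QC-marker genotype comparison and at 0.77 in the CEI-marker one, and the CEI-marker genotype differences of all 8 lie between -1.03 and 0.88.

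The third comparison set QC-marker against CEI-marker cells of the wild type. It shares the wild-type libraries of both comparisons above. AAP1 was lower in all 3 QC-marker libraries (0 to 4.85 FPKM) than in all 3 CEI-marker libraries (12.5 to 31.0), a difference of -3.43 (SE 0.65) given without a test. AAP5 likewise did not overlap, at 0.0653 to 3.34 FPKM in QC-marker and 4.86 to 9.24 in CEI-marker cells, but its difference of -2.22 (SE 0.67) did not pass (adjusted p = 0.224, limma). Without wild-type QC-marker library 1 it did, at -2.87 (SE 0.64; adjusted p = 0.0455, within a range of 0.0455 to 0.953 over the alternatives). That fit called 345 genes over the whole table, against 77 in the main fit. LHT1 had the opposite sign, at 71.3 to 134 FPKM in QC-marker and 13 to 127 in CEI-marker cells, with overlap (1.27, SE 0.62; adjusted p = 0.43).

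Of the 7 members tested in the wild type, all but AAP1, 0 were called by limma, and 1 (AAP5) had an unadjusted p under 0.05; 0.357% of all genes were called. AAP1 met the same threshold, but its QC-marker libraries entered the choice of the family, so nothing is read from that. Of the 5 remaining members tested, the difference was -0.69 for AAP3, -0.71 for AAP4, -0.09 for AAP2, -0.03 for AAP6 and -0.04 for AAP7, none of them called. For AAP2, AAP6 and AAP7 the sign changed under other settings. The median of the 8 was -0.39, beside -0.10 over all genes.

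The fourth comparison set the populations against each other in wox5-1, using the mutant libraries of the first 2 comparisons. AAP1 lay between 44.4 and 96.9 FPKM in QC-marker and between 18.7 and 60.8 in CEI-marker cells, and the groups overlapped (0.93, SE 0.61, given without a test). LHT1 overlapped as well, at 53.0 to 106 and 32.0 to 72.6 FPKM (0.40, SE 0.58; adjusted p = 0.732), and AAP5 at 5.98 to 12.0 and 5.97 to 25.3 FPKM (-0.38). The sign of the LHT1 difference turned under median-of-ratios scaling, to -0.07.

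The wox5-1 groups of AAP6 and of AAP7 did not overlap. Without the share over all genes, nothing about the family is read from that. AAP6 was at 0.107, 0, 0 and 0.189 FPKM in QC-marker cells and at 0.193, 2.22 and 4.0 in CEI-marker cells (-1.32, SE 0.44; adjusted p = 0.107, limma). Without wox5-1 CEI-marker library 1, the one with the green tissue transcripts, the difference was -1.91 (SE 0.37; adjusted p = 0.0153). AAP7 was at 0.923, 1.63, 1.15 and 0.557 FPKM in QC-marker cells and listed at 0 in all 3 CEI-marker libraries (1.02, SE 0.42; adjusted p = 0.185). By limma 0 of the 7 members tested, all but AAP1, were called, while 4.31% of all genes were called and 4519 had an unadjusted p under 0.05; AAP6 and AAP7 were among those with an unadjusted p under 0.05. With array weights, which weight each group by its spread, AAP6 was called by limma (adjusted p = 0.0224), and also without the 3 libraries named above (adjusted p = 0.00373). Its adjusted p ran from 0.00373 to 0.257 over the 16 of 22 alternatives in which it could be tested. AAP6 reached 1 FPKM only in wox5-1 CEI-marker libraries 2 and 4 and in wild-type QC-marker library 1 (1.01). It thus passed the filter mainly through the group in which it was high. Without any of those libraries it could not be fitted, so nothing is read from its calls. AAP2, AAP3 and AAP4 had differences of 0.25, 0.48 and 0.84 and were not called. The median of the 8 was 0.44, beside 0.30 over all genes; the latter moved to -0.11 under median-of-ratios scaling.

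The rest of the amino acid transport and amide metabolism genes was followed in 3 lists. Of 22 other importers, 17 were tested, and 1 was called between genotypes in QC-marker cells, where 3.43% of all genes were called. It was CAT7, a cationic amino acid transporter. It was listed at 0.224, 0 and 0 FPKM across the wild type and stood at 5.01, 5.80, 3.84 and 3.44 in wox5-1 (2.35, SE 0.44; adjusted p = 0.0132, limma). The groups did not overlap, although the adjusted p was 0.0761 after quantile normalization and 0.0985 with array weights, within a range of 0.00475 to 0.0985 over all alternatives. Of the 17, 13 had a positive difference, with a median of 0.97 beside 0.32 over all genes. The share of all genes with a positive difference was not counted, so nothing is read from the 13. Wild-type QC-marker library 2, with 19783 genes at 0, had CAT6, CAT8 and CAT9 at 0.119, 0.0850 and 0 FPKM. In libraries 1 and 3 of its group these were at 8.37 and 22.3, 9.22 and 16.0, and 5.04 and 15.7 FPKM. CAT2, CAT3 and CAT4 were instead highest of that group in library 2. By limma 0 of 17 were called in CEI-marker cells (CAT7 -0.58, adjusted p = 0.749), with 0 at an unadjusted p under 0.05, and 0 of 17 between populations in the wild type, with 3 at an unadjusted p under 0.05.

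Between populations in wox5-1, 2 of the 17 importers were called, both higher in QC-marker cells, where 4.31% of all genes were called. Outside the wox5-1 QC-marker cells, CAT7 reached 1 FPKM only in wild-type CEI-marker library 4 (2.70). It thus passed the filter through the group in which it was high, and nothing is read from its calls. CAT7 stood at 0.628, 0 and 0.336 FPKM in the CEI-marker libraries (2.07, SE 0.44; adjusted p = 0.019). AT1G47670, annotated by RefSeq as a member of the transmembrane amino acid transporter family, stood at 108, 163, 119 and 89.8 FPKM in QC-marker and 33.7, 24.0 and 18.4 in CEI-marker cells (2.21, SE 0.48; adjusted p = 0.0221). Its wild-type levels ran the same way, at 145, 261 and 152 FPKM in QC-marker and 76.6, 79.7 and 16.7 in CEI-marker cells, without passing the test (1.91, SE 0.52; adjusted p = 0.17). These levels of AT1G47670 lay above those of LHT1 in wild-type QC-marker cells and overlapped them in wox5-1 QC-marker cells.

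Among 16 exporters and regulators, 8 were tested. GDU7, of the GLUTAMINE DUMPER family of small membrane proteins, was called lower in QC-marker than in CEI-marker cells of wox5-1, at 0.848, 0, 0 and 0.304 against 2.40, 6.04 and 7.36 FPKM (-2.23, SE 0.52; adjusted p = 0.0277), and 0 of the 8 were called by limma in the other 3 comparisons, with 0 or 1 at an unadjusted p under 0.05. Outside the wox5-1 CEI-marker cells, GDU7 reached 1 FPKM only in wild-type QC-marker library 1 (3.28). It too passed the filter through the group in which it was high, and nothing is read from its call. The 3 calls in wox5-1, where 4.31% of all genes were called, are near the threshold. Leaving out any of wox5-1 CEI-marker libraries 2 and 4 or wox5-1 QC-marker libraries 1, 2 and 3 gave adjusted p from 0.0556 to 0.103 for CAT7, 0.0577 to 0.105 for AT1G47670 and 0.0514 to 0.121 for GDU7, and without wox5-1 QC-marker library 4 GDU7 had 0.064. The calls were also lost for CAT7 (0.0823) and GDU7 (0.0983) with a pseudocount of 0.1 and for AT1G47670 (0.0541) with median-of-ratios scaling. Over all alternatives the adjusted p ran from 0.0023 to 0.103 for CAT7, from 0.000531 to 0.105 for AT1G47670 and from 0.00334 to 0.121 for GDU7. Of 15 genes of amide and glutamate metabolism (glutamine and asparagine synthetases, glutamate synthases and glutamate dehydrogenases), 14 were tested and by limma 0 were called in each of the 4 comparisons, with 2 at an unadjusted p under 0.05 between genotypes in QC-marker cells and 1 in each of the other 3.

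Some members varied together within groups. After each group's mean was removed, AAP1 and AAP5 had a Pearson correlation of 0.851 over the 13 libraries and AAP3 and AAP7 of 0.873, while AAP1 and LHT1 had -0.288. These are descriptions, since genes of a library share its depth and preparation. Wild-type QC-marker library 1 had the highest AAP1, AAP3, AAP5 and AAP7 of its group, and wox5-1 CEI-marker library 2 had the highest AAP1, AAP3 and AAP5 of its group with the lowest LHT1. AAP7 was listed at 0 in all wox5-1 CEI-marker libraries. In each wild-type group it was above 0 only in library 1, where AAP3 was also highest. The correlation of AAP3 and AAP7 thus rests on few libraries.

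Over all 13 libraries, the 5 genes with a symbol whose log2(FPKM + 1) was most like that of AAP1 were CYP71B34 (Pearson r = 0.98), RGL3 (0.978), CYP94B1 (0.957), EMB1006 (0.955) and HEMA2 (0.954), out of 8669 candidates. CYP71B34 is a cytochrome P450, RGL3 a DELLA protein, CYP94B1 a hydroxylase of the jasmonate conjugate JA-Ile, and HEMA2 a glutamyl-tRNA reductase of tetrapyrrole synthesis. Each was lowest in wild-type QC-marker libraries 2 and 3, and CYP94B1, for example, stood at 14.0, 0.759 and 2.1 FPKM across the wild type and 81.5 to 105 in wox5-1 QC-marker cells. Within groups the 5 correlations were 0.768 to 0.941. By Spearman correlation 1 of the 5, CYP71B34, was again in the first 5.

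LHT1 had other neighbours: YSL6 (0.929), a metal-nicotianamine transporter, the small GTPase gene RAB6A (0.925), MVP1 (0.923), GDH2 (0.917), a glutamate dehydrogenase, and the beta-glucosidase gene BGLU22 (0.901). LHT1 and each of these 5 were lowest in wild-type CEI-marker library 3. BGLU22 spanned 9.83 to 1042 FPKM and RAB6A 76.5 to 135 over the 13 libraries. By Spearman correlation 2 of the 5, YSL6 and RAB6A, remained among the first 5. No gene was among the 5 most like both AAP1 and LHT1.

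**Figure D4:**
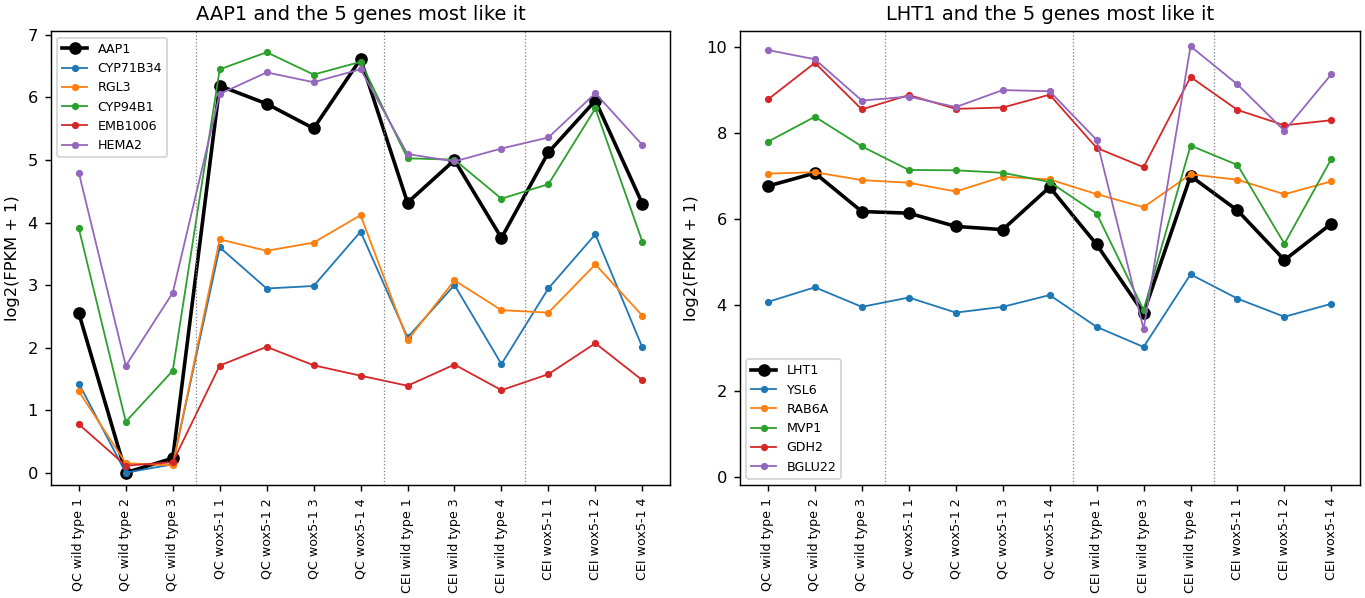
log2(FPKM + 1) of AAP1 (left) and LHT1 (right), in black, and of the 5 genes most like each, over the 13 libraries; lines join libraries only to guide the eye, and dotted lines separate the 4 groups. AAP1 and its 5 neighbours are lowest in wild-type QC-marker libraries 2 and 3, and LHT1 and its neighbours in wild-type CEI-marker library 3.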

How the data were processed

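RNA was measured in 13 libraries. The SMARTer Ultra Low Input RNA Kit was used for cDNA, which was sheared by Covaris ultrasound, per the labels' protocols; no molecular identifiers are named. The values are FPKM as deposited by the authors; Cufflinks is named per the submitters' processing notes, without a version. No source used here names the aligner or the genome build, and coordinates are left out. Names, transcript lengths and overlaps came from RefSeq (TAIR10.1), which held 32826 of 33560 identifiers. CEI-marker columns are numbered otherwise than the titles, so these numbers serve only as names.

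The members and lists were chosen with earlier results of these data known. Differences were fitted on log2(FPKM + 1) with limma (3.58.1, R 4.3.3), with a mean-variance trend, over all 13 libraries with a mean per group (9 residual degrees of freedom plus 5.28 from the shared spread), 2-sided. The test covered the 21574 genes that reached an FPKM of 1 in 3 or more libraries, with Benjamini-Hochberg adjustment over all of them and a threshold of 0.05. The log2(FPKM + 1) scale understates differences of low genes. Depth was estimated from the FPKM steps of 13561 genes and entered no test. The scripts were tested on simulated data. Named beside the members were the called genes of each list, up to 4 per comparison, and the 5 genes most correlated with AAP1 and with LHT1. Alternatives were other pseudocounts, filters and scalings, fits of only the groups compared, array weights, a replicate block, each library left out, and 3 libraries left out together.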

Additional observations from a re-analysis of the deposited data

How the results depend on the processing

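Counts that include AAP1 in a comparison with QC-marker cells are descriptions. The count of members called in QC-marker cells between genotypes was 2, and 1 with a pseudocount of 5, no filter, median-of-ratios scaling, quantile normalization, only the groups compared, array weights or the replicate block, and 1 to 2 when each library was left out in turn. Same-numbered QC-marker libraries did not deviate together (correlations 0.0315, 0.0897 and -0.0571). With so few libraries per group, this cannot decide whether they were prepared in pairs. With the replicate block 179 in place of 741 genes were called over the whole table. The block also takes wox5-1 library 4, which has no partner, out of the comparison, and without that library alone 199 were called. CAT7, called in that comparison, had 2.45 (adjusted p = 0.068, limma) with the block. In CEI-marker cells the count was 0, and 0 without any 1 library, and 1 without the 3 libraries left out together. Between populations of the wild type it was 1 (AAP1), and 0 with a pseudocount of 0.1 or 5, no filter, only the groups compared or array weights, and 0 to 2 when each library was left out. Between populations of wox5-1 it was 0, and 1 with array weights and without the 3 libraries, and 0 to 1 when each library was left out. For the difference of effects it was 0, with 0 to 1 when each library was left out and 2 without the 3 libraries. Over all genes 5 were called for that difference, 0 to 59 when each library was left out and 2979 without the 3 libraries. The difference contains the comparison that chose the family, so nothing is read from these member counts.

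Signs turned, short of the threshold, in the wild type between populations for AAP2 (0.092 with a pseudocount of 5; -1.55 to 0.99 leaving out each library), AAP6 (0.33 after quantile normalization, 0.23 without the 3 libraries, -0.16 to 0.22 leaving out each library) and AAP7 (0.33 after quantile normalization, -0.47 to 0.42 leaving out each library). Between populations of wox5-1 they turned for LHT1 (-0.071 with median-of-ratios scaling), AAP2 (-0.20 without the 3 libraries, -0.20 to 0.81 leaving out each library) and AAP5 (-0.80 to 0.16 leaving out each library). In CEI-marker cells between genotypes they turned when each library was left out for AAP2 (-1.53 to 0.34), AAP4 (-0.84 to 0.17) and LHT1 (-0.49 to 1.1). The cause was not tested.

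Over all genes, the calls in QC-marker cells between genotypes numbered 127 to 1851 over the alternatives (main 741), in CEI-marker cells 0 to 4574 (6), between populations of the wild type 1 to 700 (77) and of wox5-1 221 to 6650 (930). Of the calls between populations of the wild type, 54 were higher and 23 lower in QC-marker cells, and 35 and 31 with median-of-ratios scaling. In wox5-1 they were 570 and 360, and 267 and 491 with median-of-ratios scaling or 553 and 620 after quantile normalization. In QC-marker cells between genotypes 659 were higher and 82 lower, and 343 and 111 after quantile normalization. In CEI-marker cells 4 were higher and 2 lower, and 1 and 1 after quantile normalization. AAP8 could be fitted only with no filter. AAP6 could not be fitted with a filter of 5 FPKM, with median-of-ratios scaling or with only the groups compared. With each library left out in turn it could be fitted 10 of 13 times, so its ranges cover those fits. Low levels in wild-type QC-marker cells rest on few fragments.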
